A study of Mus musculus with 10 samples.

Results

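Expression of 10 genes of the NRF2 antioxidant pathway was followed in primary mouse hepatocytes, out of the 16401 genes that the array table names. They were chosen by symbol, from array features that carry exactly 1 gene symbol, and of a gene with several such features the one with the highest mean over the 10 libraries was kept. Nfe2l2, which encodes NRF2, and Keap1 were the 2 regulator genes. Srxn1, Gclc, Gclm, Nqo1, Txnrd1, Hmox1, Slc7a11 and Prdx1 were the 8 target genes. All 10 genes passed the filter on low values, and only Prdx1 had more than 1 feature.

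NRF2 is a transcription factor that, in unstressed cells, is held by the adaptor KEAP1 and passed to a ubiquitin ligase for degradation. Oxidants and electrophiles modify KEAP1, NRF2 then builds up, pairs with small MAF proteins and binds antioxidant response elements near genes for glutathione synthesis, thioredoxin-dependent reduction, quinone detoxification and heme breakdown. Because this control acts largely on the NRF2 protein, Nfe2l2 mRNA and NRF2 activity need not move together, and the arrays measured mRNA only.

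The cells came from 10-week-old male C57BL6/J mice and were cultured for 72 hours after transduction, at 2 to 4 pfu (plaque-forming units) per cell, with a short hairpin RNA (shRNA) against Kat2b (shKAT2B), against Wdr5 (shWDR5) or against no specific gene (shNS). Kat2b encodes a histone acetyltransferase and Wdr5 a scaffold protein that histone methyltransferase complexes share. Cells then received 100 nM glucagon, a pancreatic hormone of fasting that acts on hepatocytes through cyclic AMP, or phosphate-buffered saline (PBS) for 90 minutes. The 6 groups were shKAT2B glucagon (2 libraries), shKAT2B PBS (1), shWDR5 glucagon (2), shWDR5 PBS (1), shNS glucagon (2) and shNS PBS (2), and every group shares the transduction and the culture. Each library pooled RNA of 3 dishes, 1 hairpin is named per target, and whether the libraries lettered A and B came from different animals is not stated, so a p-value reflects library-to-library spread that may be technical. The question the comparisons address, as the series title gives it, is what loss of KAT2B or WDR5 does to hepatocyte gene expression.

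Levels below are log2(intensity + 1) and differences are log2 differences. A gene was called at a Benjamini-Hochberg adjusted p below 0.05 over 11480 tested genes in limma. The hairpin targets followed their labels in every library. Kat2b lay at 6.60 to 6.93 in the 3 shKAT2B libraries, against 9.40 to 9.42 in the 4 shNS libraries, and Wdr5 at 8.19 to 8.40 in the 3 shWDR5 libraries, against 9.99 to 10.06 in shNS. Library medians were 282.09 to 298.17 in intensity. The libraries also split in a way that arm and treatment do not account for. In the residuals of the additive model of arm and treatment, the leading component carried 78 percent of the variance. By its sign, library A of shKAT2B glucagon, of shWDR5 glucagon, of shNS glucagon and of shNS PBS formed a first set, and the other 6 libraries, 1 per group, a second set. Summed marker intensity of Kupffer cells and leukocytes was 11030 to 15600 in the second set and 7497 to 9373 in the first, and that of stellate cells and fibroblasts was 7118 to 7528 in the second set and 9732 to 9952 in the first. Of the hepatocyte markers Alb, Ttr, Apoa1, Hnf4a and 8 others were measured above the filter, and Cyp2e1 was below it.

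Promoter sequence is shown for 3 targets that hold a match to the element NRF2 binds and for Nqo1, which holds none in this window, since Srxn1, Gclm and Nqo1 were called after KAT2B depletion and Prdx1 was not. In the RefSeq table for GRCm38.p6, 6 of the 8 targets and both regulators had an entry of 300 bases, from 250 before to 50 after a gene's start. Both strands were searched for TGACNNNGC, the core of the antioxidant response element, for the same core with G in place of its only C before the spacer (TGAGNNNGC), and for TGACGTCA, the cyclic AMP response element. Capitals mark matches to either form of the core, and a match on the other strand reads as its reverse complement.
Srxn1, chr2:152105274-152105573, plus strand: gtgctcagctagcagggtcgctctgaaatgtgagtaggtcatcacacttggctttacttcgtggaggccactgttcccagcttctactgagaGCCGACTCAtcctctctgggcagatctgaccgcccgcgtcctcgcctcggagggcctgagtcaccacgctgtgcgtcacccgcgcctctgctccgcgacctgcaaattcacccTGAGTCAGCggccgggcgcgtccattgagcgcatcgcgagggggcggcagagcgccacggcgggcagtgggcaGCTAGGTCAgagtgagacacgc
Gclm, chr3:122245307-122245606, plus strand: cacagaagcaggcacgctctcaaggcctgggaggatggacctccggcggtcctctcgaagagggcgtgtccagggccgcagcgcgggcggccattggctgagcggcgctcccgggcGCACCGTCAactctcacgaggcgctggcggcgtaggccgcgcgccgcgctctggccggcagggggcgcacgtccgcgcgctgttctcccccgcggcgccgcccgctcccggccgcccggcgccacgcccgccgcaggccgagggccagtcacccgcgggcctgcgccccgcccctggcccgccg
Prdx1, chr4:116685349-116685648, plus strand: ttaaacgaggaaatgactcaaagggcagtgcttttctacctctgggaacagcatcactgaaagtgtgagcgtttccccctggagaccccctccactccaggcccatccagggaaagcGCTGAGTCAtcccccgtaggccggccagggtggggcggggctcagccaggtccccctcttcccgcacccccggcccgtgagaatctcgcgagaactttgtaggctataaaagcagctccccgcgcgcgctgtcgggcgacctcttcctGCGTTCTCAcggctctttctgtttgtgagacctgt
Nqo1, chr8:107403156-107403455, minus strand: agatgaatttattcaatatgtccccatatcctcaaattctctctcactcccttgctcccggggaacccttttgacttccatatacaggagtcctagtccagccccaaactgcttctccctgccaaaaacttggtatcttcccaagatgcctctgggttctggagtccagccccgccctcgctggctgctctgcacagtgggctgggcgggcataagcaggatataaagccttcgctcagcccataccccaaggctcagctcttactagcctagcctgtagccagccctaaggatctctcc
The core TGACNNNGC was present in 4 targets (Srxn1, Gclm, Txnrd1 and Prdx1), and either form in 5, the fifth being Slc7a11. Txnrd1 had 3 windows, and its only match lay in window 2. Over all 32851 windows of the table, from 27025 genes, 12.4 percent held TGACNNNGC, 17.6 percent held TGAGNNNGC and 27.8 percent held either. These shares count windows while the targets are counted as genes, so enrichment was not tested. The Srxn1 match TGAGTCAGC began 45 bases before the start, and the Prdx1 match TGACTCAGC, on the other strand, began 133 bases before it, counted from its far end. Both contain the shorter element of AP-1 factors as well. Nqo1 and Keap1 had no match in this window, Nfe2l2 had 1, and no member had TGACGTCA, which 1.79 percent of windows held. A match here is a run of letters, and binding was not measured.

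Of the 8 target genes, 7 fell after KAT2B depletion, by 0.66 to 0.94 on the log2 scale, while neither regulator gene was called. Over all tested genes 8.95 percent were called lower and 6.66 percent higher in this comparison. The 8 targets had a median difference of -0.77, against 0.01 over all genes tested.

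Srxn1, sulfiredoxin, which repairs over-oxidized peroxiredoxins, stood at 11.10 and 11.33 in the shKAT2B glucagon libraries (A and B, in this order here and below) and at 11.12 in the shKAT2B PBS library. It stood at 12.30 and 12.19 with shWDR5 and glucagon, at 12.15 with shWDR5 and PBS, at 12.14 and 12.17 with shNS and glucagon, and at 12.09 and 12.05 with shNS and PBS. All 3 shKAT2B libraries therefore lay below all 7 others. The difference from shNS was -0.94 ± 0.06 (SE, adjusted p 6.71e-05), a ratio of 0.52, the smallest adjusted p among the members.

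**Figure D1:**
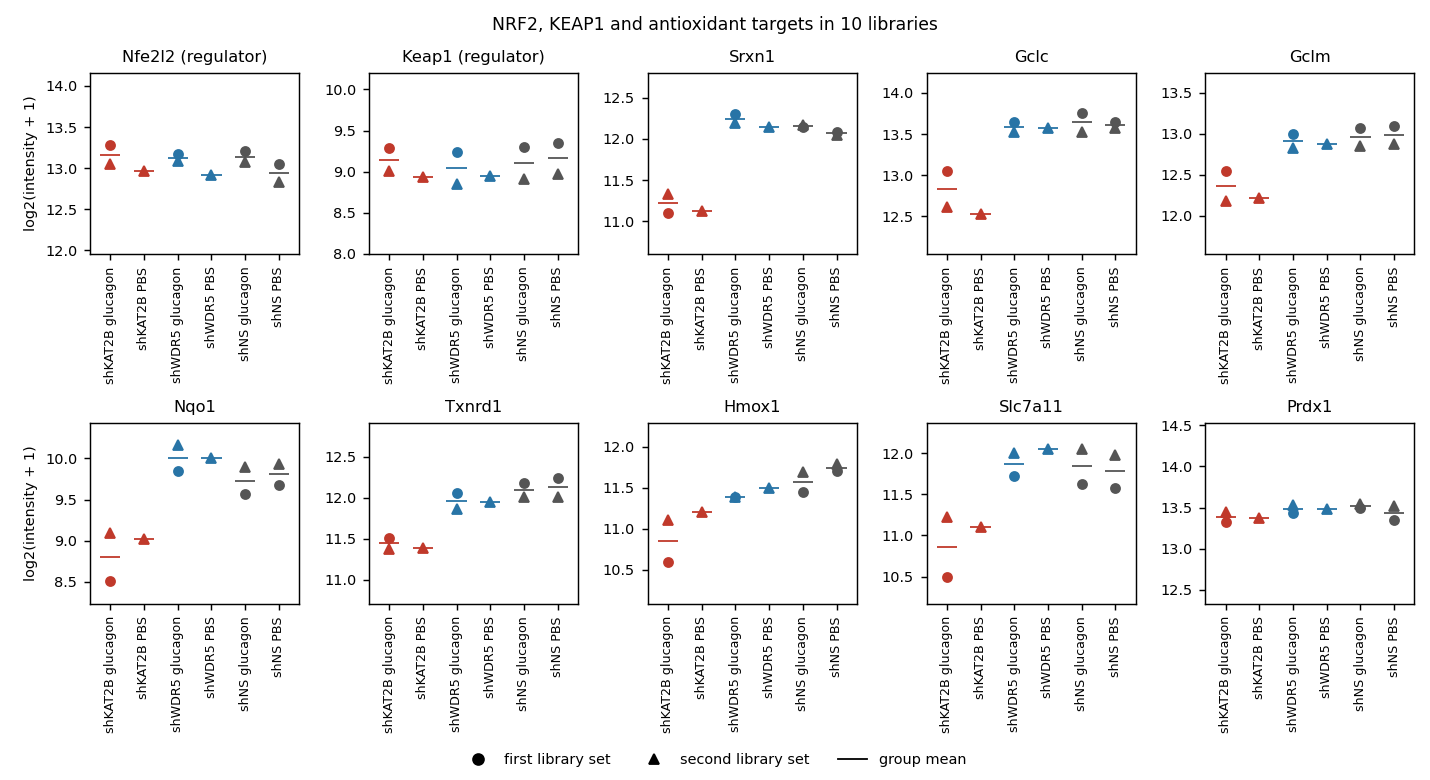
Level of each member, log2(intensity + 1), in the 10 libraries, by group; circles are the first library set, triangles the second, and bars the group mean. In the panels of Srxn1, Gclc, Gclm, Nqo1, Txnrd1, Hmox1 and Slc7a11 the 3 shKAT2B points lie below the 4 shNS points, while Nfe2l2, Keap1 and Prdx1 overlap.

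The glutathione genes fell together. Gclc, the catalytic subunit of glutamate-cysteine ligase, the enzyme that limits glutathione synthesis, read 13.05 and 12.61 in shKAT2B glucagon and 12.53 in shKAT2B PBS, against 13.75 and 13.53 in shNS glucagon and 13.65 and 13.57 in shNS PBS. Gclm, its modifier subunit, read 12.54 and 12.18 in shKAT2B glucagon and 12.22 in shKAT2B PBS, against 13.07 and 12.85 in shNS glucagon and 13.09 and 12.87 in shNS PBS. For both subunits the groups did not overlap, and library A of the shKAT2B glucagon pair was the highest of its arm. The difference was -0.91 ± 0.11 for Gclc (adjusted p 0.00107) and -0.66 ± 0.10 for Gclm (adjusted p 0.00302). Slc7a11, the light chain of the transporter that imports cystine for glutathione, read 10.49 and 11.23 in shKAT2B glucagon and 11.10 in shKAT2B PBS, against 11.63 and 12.05 in shNS glucagon and 11.58 and 11.98 in shNS PBS. Its highest shKAT2B library was below its lowest shNS library, but the libraries of one group spread more than for the ligase subunits. The difference was -0.85 ± 0.19 (adjusted p 0.0163), and without the shKAT2B PBS library it was no longer called (adjusted p 0.0718).

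The reductases and heme oxygenase fell as well. Nqo1, a quinone reductase that is widely used as a readout of NRF2, read 8.50 and 9.09 in shKAT2B glucagon and 9.02 in shKAT2B PBS, against 9.56 and 9.89 in shNS glucagon and 9.68 and 9.93 in shNS PBS. Txnrd1, cytosolic thioredoxin reductase, read 11.51 and 11.38 in shKAT2B glucagon and 11.39 in shKAT2B PBS, against 12.18 and 12.01 in shNS glucagon and 12.24 and 12.01 in shNS PBS. Neither gene overlapped between the arms. The difference was -0.88 ± 0.16 for Nqo1 (adjusted p 0.00616) and -0.68 ± 0.08 for Txnrd1 (adjusted p 0.000933). Hmox1, inducible heme oxygenase, which is also abundant in macrophages, read 10.59 and 11.11 in shKAT2B glucagon and 11.20 in shKAT2B PBS, against 11.45 and 11.69 in shNS glucagon and 11.70 and 11.79 in shNS PBS. Its difference was -0.66 ± 0.12 (adjusted p 0.00662), with no overlap, and the narrowest gap of the 7, since the highest shKAT2B library was 11.20 and the lowest shNS library 11.45.

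Prdx1, a peroxiredoxin that reduces peroxides, was the target that was not called. It read 13.32 and 13.45 in shKAT2B glucagon and 13.37 in shKAT2B PBS, against 13.49 and 13.54 in shNS glucagon and 13.35 and 13.52 in shNS PBS, so the arms overlapped. The difference was -0.10 ± 0.06 (95% interval -0.23 to 0.02, adjusted p 0.267). Its second feature, which was not used, averaged 12.64 in shKAT2B libraries (12.52 to 12.78) and 12.83 in shNS libraries (12.75 to 12.91), with some overlap. Which of the 2 features better reports Prdx1 could not be checked, so its result depends on that choice. The mean of both features gave -0.15 (adjusted p 0.184). Quantile normalization (adjusted p 0.034), the library set as a term (0.00457) and the second set alone (0.0424) did call Prdx1 lower, with 10.1, 20.1 and 18.5 percent of all tested genes called lower in those fits.

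**Figure D2:**
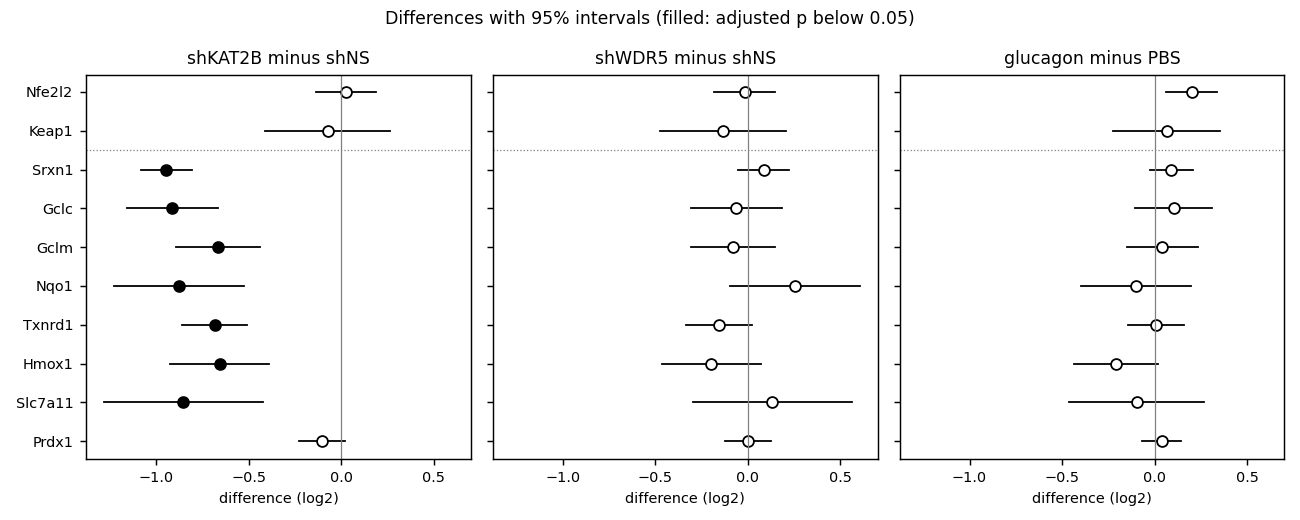
Log2 differences of the 10 members with 95% intervals in 3 comparisons (shKAT2B minus shNS, shWDR5 minus shNS, glucagon minus PBS); filled points have an adjusted p below 0.05. Only 7 targets in the first panel are filled, and their intervals end at or below -0.39, while those of Nfe2l2 and Keap1 include 0.

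The regulator genes did not follow the targets. Nfe2l2 read 13.28 and 13.05 in shKAT2B glucagon and 12.97 in shKAT2B PBS, against 13.21 and 13.07 in shNS glucagon and 13.05 and 12.83 in shNS PBS. Keap1 read 9.28 and 9.003 in shKAT2B glucagon and 8.93 in shKAT2B PBS, against 9.30 and 8.91 in shNS glucagon and 9.35 and 8.97 in shNS PBS. Both overlapped between the arms. The difference was 0.03 ± 0.07 for Nfe2l2 (95% interval -0.14 to 0.19, adjusted p 0.85) and -0.07 ± 0.15 for Keap1 (95% interval -0.41 to 0.27, adjusted p 0.797). The interval of Nfe2l2 does not reach that of any called target, whose upper ends ran from -0.81 for Srxn1 to -0.39 for Hmox1, and the interval of Keap1 reaches that of Hmox1 alone. Over the 6 groups the group means of Nfe2l2 spanned 0.245, those of Keap1 0.23 and those of Prdx1 0.145, against 0.73 to 1.21 for the 7 called targets.

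The drop of the targets was present in each pair of libraries matched by set and treatment. In the first set under glucagon all 8 targets were lower with shKAT2B than with shNS (median -0.78), in the second set under glucagon all 8 (median -0.73), and in the second set under PBS all 8 (median -0.76). Each of these sets 1 library against 1 and has no error of its own. Prdx1 had the smallest drop in each pair (-0.17, -0.09 and -0.15). Nfe2l2 differed by 0.07, -0.02 and 0.14 and Keap1 by -0.02, 0.09 and -0.04 in the same pairs.

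**Figure D3:**
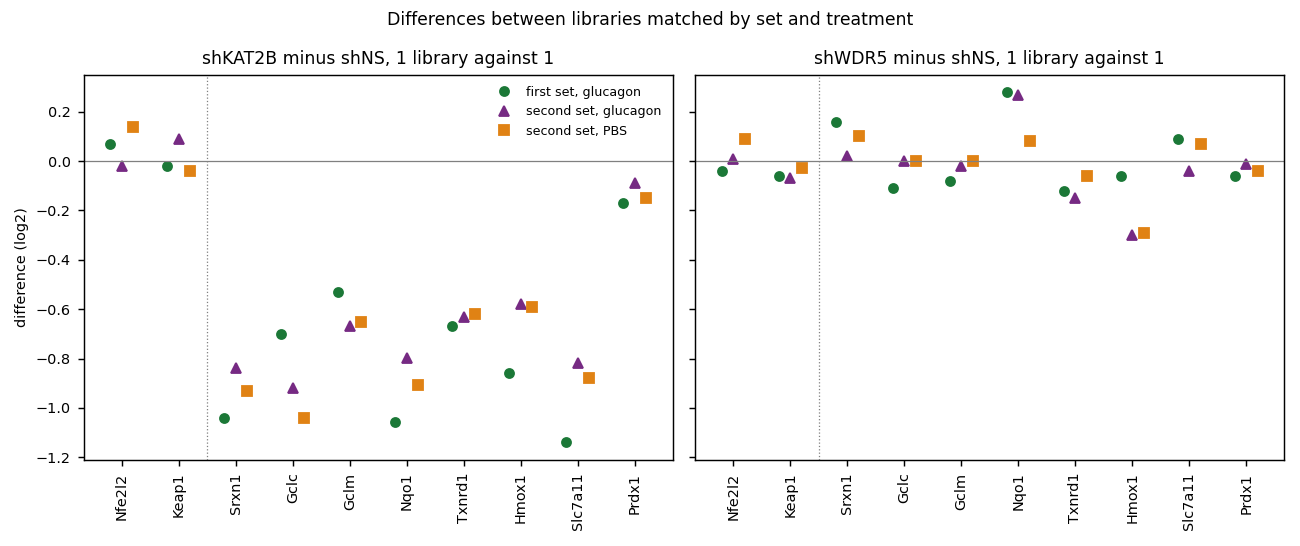
Log2 difference of each member between 1 shRNA library and 1 shNS library of the same library set and treatment, for shKAT2B (left) and shWDR5 (right). With shKAT2B every target lies below 0 in all 3 pairs and the regulators lie between -0.04 and 0.14; with shWDR5 the targets lie between -0.30 and 0.28.

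The same 7 targets did not overlap between shKAT2B and shNS libraries, where 13.3 percent of all tested genes were lower without overlap. With only the 6 glucagon libraries, which leave 3 residual degrees of freedom, the calls shrank to Srxn1 alone (adjusted p 0.039), against 0.348 percent of all genes called lower, while the median of the 8 targets was -0.76. Leaving out 1 library at a time called 6 or 7 of the 10 members.

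Wider NRF2 target genes also fell after KAT2B depletion. Of 35 further genes known as NRF2 targets, 30 were tested, 16 were called lower and 0 higher, and 29 had a negative difference (median -0.31, against 0.01 over all genes). Over all tested genes 8.95 percent were called lower. The list was chosen with earlier results of these data known, and the counts depend on its makeup. It leaves out Slc40a1, an NRF2 target on the heme list, which was called higher (0.38 ± 0.08, adjusted p 0.01). Glutathione S-transferases Gsta3, Gsta4 and Gstm1, which conjugate electrophiles to glutathione, differed by -0.75 ± 0.04 (adjusted p 4.19e-05), -0.72 ± 0.05 (adjusted p 7.27e-05) and -0.58 ± 0.05 (adjusted p 0.000259). Blvrb, a biliverdin reductase, differed by -0.66 ± 0.06 (adjusted p 0.000318). None of the 4 lost its call when a library was left out. The transferases belong to families of similar sequence, so their features may share signal. Without the shKAT2B PBS library the count of 16 became 10, and with only the glucagon libraries 3. With the replicate letter as a block it became 22, with the library set as a term 23 and with the second set alone 21, and in these 3 fits 0 were called higher. Over all tested genes 20.1 percent were called lower with the library set and 18.5 percent with the second set alone. The block called 29.6 percent in either direction.

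**Figure D4:**
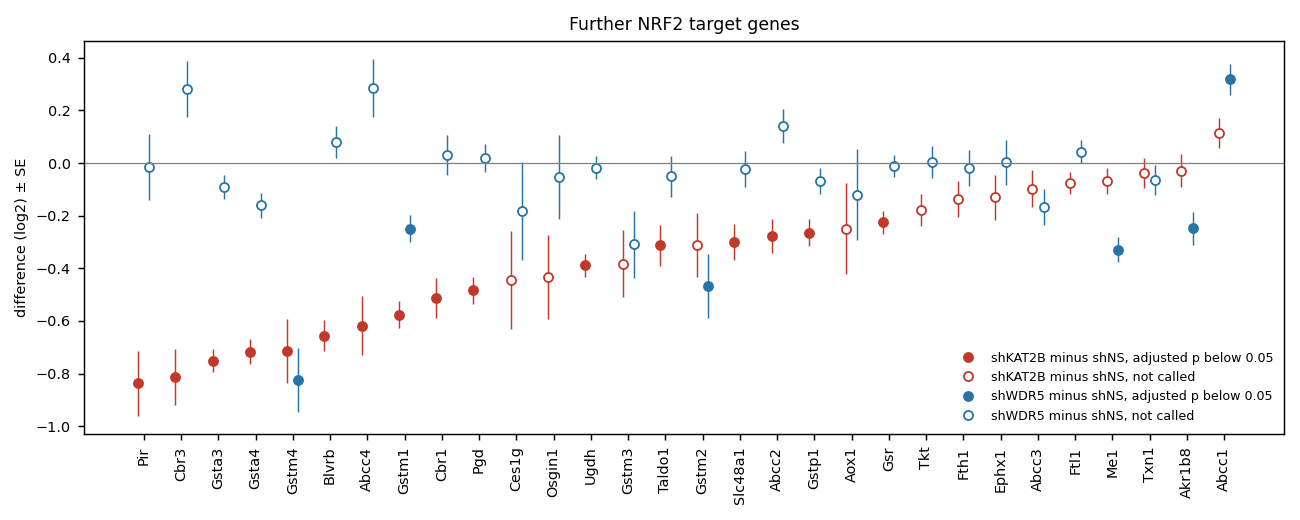
Log2 difference ± SE of 30 further NRF2 target genes for shKAT2B minus shNS (red) and shWDR5 minus shNS (blue), ordered by the first; filled points have an adjusted p below 0.05. With shKAT2B 29 of 30 lie below 0 and 16 are filled, and with shWDR5 5 are filled below 0 and 1 above.

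Among 16 tested NRF2 partners and regulators, 3 were called lower and 1 higher after KAT2B depletion (median -0.02). Over all tested genes 8.95 percent were called lower and 6.66 percent higher (median 0.01), and the 1 higher call is near that share. Maff, a small MAF protein that pairs with NRF2, differed by -0.64 ± 0.10 (adjusted p 0.00309). Bach1, the repressor that competes with NRF2 for its elements, differed by -0.59 ± 0.14 (adjusted p 0.0201), and Sqstm1, which encodes the autophagy receptor p62 that binds KEAP1, by -0.38 ± 0.08 (adjusted p 0.0109). Eif2ak3, the stress kinase PERK, rose by 0.40 ± 0.11 (adjusted p 0.034). Of these only Maff was called in every fit that left out a library, and without the shKAT2B PBS library it was the 1 partner called lower. Eif2ak3 lost its call in 6 of those 10 fits. With only the glucagon libraries 0 of the 16 partners were called, against 0.348 percent of all tested genes called lower. With the library set as a term, and with the second set alone, 5 partners were called lower and 2 higher. Over all tested genes the library set gave 20.1 percent called lower and 21.5 percent higher. The second set alone gave 18.5 percent lower and 18.6 percent higher.

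Glutathione synthesis and turnover had 5 genes called lower and 0 higher of 15 tested (median -0.14), where 8.95 percent of all tested genes were called lower. Cth, which makes cysteine from cystathionine, differed by -1.10 ± 0.22 (adjusted p 0.0103), Chac1, which degrades glutathione, by -0.65 ± 0.14 (adjusted p 0.0135), Gss, glutathione synthetase, by -0.41 ± 0.09 (adjusted p 0.0157) and Gsr, glutathione reductase, by -0.23 ± 0.04 (adjusted p 0.00822). So the drop took in genes that make glutathione and 1 that breaks it down. The count became 0 without the shKAT2B PBS library and 0 with only the glucagon libraries. It became 6 lower and 1 higher with the replicate letter as a block, 8 lower and 2 higher with the library set as a term, and 7 lower and 2 higher with the second set alone. More of all tested genes were called in these fits too, 29.6 percent in either direction with the block. The shares with the library set and the second set are those given for the partners.

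Among 13 peroxiredoxin and thioredoxin genes, Prdx3, the mitochondrial peroxiredoxin, was called lower (-0.38 ± 0.05, adjusted p 0.00185) and Sesn2, a stress-inducible sestrin, higher (0.60 ± 0.12, adjusted p 0.00936), with a median of -0.04. The 1 lower and 1 higher call of 13 lie near the shares over all tested genes, 8.95 percent lower and 6.66 percent higher. Without the shKAT2B PBS library Sesn2 was not called (adjusted p 0.0609). Of 16 heme and iron genes 6 were called lower and 1 higher (median -0.16). Of these 6, Blvrb and Slc48a1 were also counted among the further NRF2 targets, and Bach1 among the partners. Gsr was likewise counted among both the further targets and the glutathione genes. Cpox, an enzyme of heme synthesis, differed by -0.73 ± 0.13 (adjusted p 0.00576), Alas1, which starts that pathway, by -0.31 ± 0.07 (adjusted p 0.0157), and Slc40a1, the iron exporter ferroportin and itself an NRF2 target, rose by 0.38 ± 0.08 (adjusted p 0.01). Without the shKAT2B PBS library 1 gene of the heme list was called lower and 0 higher. With the library set as a term 8 were called lower and 1 higher, among 20.1 percent of all genes called lower and 21.5 percent higher.

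Slc7a11 is also a target of ATF4, the factor of the amino acid stress response, so genes of that response were set beside it. Of 12, 3 were called lower and 1 higher (median -0.34), where 8.95 percent of all tested genes were called lower and 6.66 percent higher. Psat1 and Asns, enzymes of serine and asparagine synthesis, differed by -0.34 ± 0.07 (adjusted p 0.0125) and -0.32 ± 0.08 (adjusted p 0.0219), and Sesn2, on this list too, was the gene called higher. Chac1, also called lower here, is the gene already counted on the glutathione list. With the replicate letter as a block 10 were called lower and 1 higher, among 29.6 percent of all tested genes called in either direction. With the library set as a term 11 were lower and 1 higher, among 20.1 percent of all genes called lower and 21.5 percent higher. Without the shKAT2B PBS library 1 was called lower. With only the glucagon libraries 0 were called, against 0.348 percent of all genes called lower.

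Hepatocyte markers were lower in the shKAT2B arm. Few markers of other cell types were called in the additive model, but of the 12 Kupffer and 12 endothelial markers 0 had a difference below 0. The hepatocyte markers had 6 of 12 genes called lower (median -0.38), where 8.95 percent of all tested genes were called lower and 6.66 percent higher. Their summed intensity was 68261 to 71382 in shKAT2B libraries, against 77948 to 85214 in shNS libraries, without overlap. The Kupffer cell and leukocyte markers had 0 of 12 called (1 at an unadjusted p below 0.05, median 0.44), with overlapping sums of 8720 to 15600 in shKAT2B and 7497 to 12207 in shNS libraries, and Marco and Timd4 below the filter. The endothelial markers had 1 of 12 called, higher (median 0.30), with sums of 4883 to 8157 in shKAT2B and 4751 to 6748 in shNS, and Vwf below the filter. The stellate markers had 1 of 9 called, lower (median 0.15), with sums of 7430 to 9952 in shKAT2B and 7118 to 9856 in shNS, and Reln, Lum and Rgs5 below the filter. The cholangiocyte markers had 1 of 3 called, lower, with sums of 2729 to 4455 in shKAT2B and 3446 to 4893 in shNS, and Epcam below the filter. With the replicate letter as a block 7 Kupffer and 6 endothelial markers were called higher, and 8 hepatocyte, 2 stellate and 2 cholangiocyte markers lower. That fit called 29.6 percent of all tested genes in either direction. With the library set as a term 7 Kupffer and 6 endothelial markers were called higher and 11 hepatocyte markers lower. The stellate markers turned to 5 called higher and 1 lower in that fit, among 21.5 percent of all genes called higher and 20.1 percent lower. The second set alone gave 8 Kupffer and 8 endothelial markers higher, 11 hepatocyte markers lower and the same stellate counts. It called 18.6 percent of all tested genes higher and 18.5 percent lower. Without the shKAT2B PBS library the 6 hepatocyte calls became 2. The hepatocyte markers differed unequally, from -0.91 for Ttr to 0.23 for Ahsg, with 11 of 12 below 0. In these bulk libraries fewer hepatocytes and lower expression of the marker genes in each hepatocyte cannot be told apart. The part of cell makeup in the drop of the targets was not tested.

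WDR5 depletion gave 0 calls among the 10 members in limma, where 10.9 percent of all tested genes were called (6.17 percent lower and 4.69 percent higher), and 0 members had an unadjusted p below 0.05. The median of the 8 targets was -0.03, against -0.01 over all genes. Srxn1 differed by 0.09 ± 0.06 (95% interval -0.05 to 0.22), Gclc by -0.06 ± 0.11 (-0.31 to 0.18), Gclm by -0.08 ± 0.10 (-0.31 to 0.15) and Prdx1 by -0.001 ± 0.06 (-0.13 to 0.12). These intervals leave out drops of the size that KAT2B depletion gave for Srxn1, Gclc and Gclm.

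Nqo1, Hmox1 and Txnrd1 had wider differences that did not pass the test. Nqo1 read 9.84 and 10.16 in shWDR5 glucagon and 10.01 in shWDR5 PBS, with a difference from shNS of 0.25 ± 0.16 (-0.10 to 0.61, adjusted p 0.35). Hmox1 read 11.39 and 11.39 in shWDR5 glucagon and 11.50 in shWDR5 PBS, with a difference of -0.20 ± 0.12 (-0.46 to 0.07, adjusted p 0.345). Txnrd1 read 12.06 and 11.86 in shWDR5 glucagon and 11.95 in shWDR5 PBS, with a difference of -0.15 ± 0.08 (-0.33 to 0.02, adjusted p 0.26). Each of these 3 overlapped shNS. With the replicate letter as a block Nqo1 was called higher (0.33, adjusted p 0.0204) and Txnrd1 lower (-0.19, adjusted p 0.0211), among 26.7 percent of all genes called. With the library set as a term Txnrd1 (-0.12, adjusted p 0.0252) and Hmox1 (-0.24, adjusted p 0.0286) were called lower, among 36.8 percent, and with the second set alone Hmox1 was (-0.29, adjusted p 0.00167), among 27.9 percent. Slc7a11 read 11.72 and 12.01 in shWDR5 glucagon and 12.05 in shWDR5 PBS, and differed by 0.13 ± 0.19 (-0.30 to 0.56). Nfe2l2 differed by -0.02 ± 0.07 (-0.18 to 0.15) and Keap1 by -0.14 ± 0.15 (-0.48 to 0.20).

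Further NRF2 targets split after WDR5 depletion, with 5 called lower and 1 higher of 30 (median -0.04). Over all tested genes 6.17 percent were called lower and 4.69 percent higher. Gstm4 differed by -0.82 ± 0.12 (adjusted p 0.00497), Me1, malic enzyme, by -0.33 ± 0.05 (adjusted p 0.00517), Gstm1 by -0.25 ± 0.05 (adjusted p 0.0163) and Abcc1, an exporter of glutathione conjugates, by 0.32 ± 0.06 (adjusted p 0.0111). The count of 6 became 2 without the shWDR5 PBS library, 3 without shNS glucagon A and 3 without shWDR5 glucagon B, and 0 with only the glucagon libraries, where 0.00871 percent of all tested genes were called. It became 9 with the replicate letter as a block (7 lower, 2 higher), 11 with the library set as a term (7 lower, 4 higher) and 10 with the second set alone (7 lower, 3 higher), where the calls over all genes were also more, as given above. Other lists had few calls: Dpp3, which binds KEAP1, among the partners (0.21 ± 0.06, adjusted p 0.0443), Txnip, the thioredoxin inhibitor (-0.72 ± 0.16, adjusted p 0.0241), and Sesn2 (0.51 ± 0.12, adjusted p 0.0275) among the thioredoxin genes, and 3 heme and iron genes. Those 3 were Slc40a1 (0.31 ± 0.08, adjusted p 0.0329), Tfrc, the transferrin receptor (0.58 ± 0.15, adjusted p 0.0362), and Alas1 (-0.27 ± 0.07, adjusted p 0.0343). These calls differed in how often they were lost. Of the 10 fits that left out a library, Dpp3 lost its call in 9, Slc40a1, Tfrc and Alas1 in 7 each, Sesn2 in 6, Txnip in 5, Gstm1 in 3 and Abcc1 in 1, and the largest adjusted p of each came without the shWDR5 PBS library. Gstm4 and Me1 kept their calls in all 10. The glutathione list had 0 of 15 called (1 at an unadjusted p below 0.05). With the replicate letter as a block the calls were 5 of 16 partners, 5 of 13 thioredoxin genes, 5 of 16 heme and iron genes and 1 of 15 glutathione genes. With the library set as a term they were 5, 6, 5 and 3. Over all tested genes 26.7 percent were called with the block and 36.8 percent with the library set.

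After WDR5 depletion few markers of cell types other than cholangiocytes were called, where 10.9 percent of all tested genes were called. Here too, of the 12 Kupffer and 12 endothelial markers 0 had a difference below 0. Hepatocyte markers had 2 of 12 called, both lower (median -0.14), with sums of 70456 to 77686 in shWDR5 libraries, against 77948 to 85214 in shNS libraries, without overlap. Cholangiocyte markers had 2 of 3 called lower (median -0.46), with overlapping sums of 2464 to 3883 in shWDR5 and 3446 to 4893 in shNS. Kupffer cell and leukocyte markers had 0 of 12 called (0 at an unadjusted p below 0.05, median 0.26), with sums of 9373 to 12998 in shWDR5 and 7497 to 12207 in shNS. Endothelial markers had 0 of 12 called (1 at an unadjusted p below 0.05, median 0.28), with sums of 5275 to 7422 in shWDR5 and 4751 to 6748 in shNS. Stellate markers had 1 of 9 called, lower (median 0.06), with sums of 7195 to 9732 in shWDR5 and 7118 to 9856 in shNS. More markers were called in the other fits, and so were more of all tested genes. Those shares were 26.7 percent with the replicate block, 36.8 percent with the library set and 27.9 percent with the second set alone. The replicate block gave 7 Kupffer and 4 endothelial markers called higher, and 5 hepatocyte, 2 stellate and 2 cholangiocyte markers lower. With the library set as a term 5 Kupffer and 3 endothelial markers were called higher, 3 stellate markers higher and 1 lower, and 7 hepatocyte markers lower and 1 higher. With the second set alone 4 Kupffer and 6 endothelial markers were called higher, 2 stellate markers higher and 1 lower, and 5 hepatocyte markers lower and 1 higher. The part of cell makeup in the list changes after WDR5 depletion was not tested.

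The direct comparison of the 2 hairpins, shKAT2B minus shWDR5, shows whether the drop of the targets differed between them. It called the same 7 targets lower, where 11.5 percent of all tested genes were called lower and 11.2 percent higher, and did not call Prdx1 or either regulator. Prdx1 differed by -0.13 (adjusted p 0.039) with quantile normalization, among 12.6 percent of all genes called lower, and by -0.10 (adjusted p 0.017) with the library set as a term, among 24.6 percent, and was called lower in both. Nqo1 differed by -1.13 ± 0.16 (adjusted p 0.00165), Srxn1 by -1.03 ± 0.06 (adjusted p 4.37e-05) and Slc7a11 by -0.99 ± 0.20 (adjusted p 0.00809). Gclc differed by -0.85 ± 0.12 (adjusted p 0.00119), Gclm by -0.58 ± 0.11 (adjusted p 0.00476) and Txnrd1 by -0.53 ± 0.08 (adjusted p 0.00239). All 7 were lower in every shKAT2B library than in every shWDR5 library, against 17.5 percent of all tested genes. Hmox1 had the smallest difference of the 7, -0.46 ± 0.13 (adjusted p 0.0285), and was not called in 4 of the 10 fits that left out a library (without shWDR5 PBS A, shWDR5 glucagon A, shWDR5 glucagon B or shKAT2B PBS A). With only the glucagon libraries Srxn1 alone was called, against 1.45 percent of all genes called lower.

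Among the 30 further targets tested 15 were called lower and 2 higher with shKAT2B than with shWDR5. Over all tested genes 11.5 percent were called lower and 11.2 percent higher. Cbr3, a carbonyl reductase, differed by -1.10 ± 0.11 (adjusted p 0.00035), Blvrb by -0.74 ± 0.06 (adjusted p 0.000178) and Gsta3 by -0.66 ± 0.05 (adjusted p 8.13e-05). Bach1 differed by -0.91 ± 0.15 (adjusted p 0.00259) and Cth by -1.24 ± 0.23 (adjusted p 0.00564). Of the ATF4 list 8 of 12 were called lower and 0 higher, Ddit3, the stress factor CHOP, among them (-0.71 ± 0.15, adjusted p 0.00976). With only the glucagon libraries 6 of the further targets and 0 of the ATF4 list were called lower. These comparisons use the same shKAT2B libraries as those against shNS and are not separate evidence.

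Glucagon called none of the 10 members in limma, where 0.923 percent of all tested genes were called (0.679 percent higher), and 1 had an unadjusted p below 0.05. That 1 was Nfe2l2, at 0.20 ± 0.06 (95% interval 0.06 to 0.34, unadjusted p 0.00993, adjusted p 0.425). Between glucagon and PBS libraries of the same arm and set, Nfe2l2 was higher in all 4 pairs, by 0.08 in shKAT2B, 0.16 in shWDR5 and 0.16 and 0.24 in shNS. It was called with the replicate letter as a block (0.25, adjusted p 0.00458, among 2.5 percent of all genes called) and with the library set as a term (0.15, adjusted p 0.0127, among 3.35 percent).

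The targets did not move one way under glucagon. Their median was 0.02, with 3 of 8 below 0, and the differences ran from -0.21 ± 0.10 for Hmox1 (-0.43 to 0.02) to 0.10 ± 0.09 for Gclc (-0.11 to 0.31). In the 4 matched pairs 4 targets kept one sign. Hmox1 was lower with glucagon in all 4, with differences of -0.09 in shKAT2B, -0.11 in shWDR5 and -0.25 and -0.10 in shNS. Gclm was lower by at most 0.04, with differences of -0.04 in shKAT2B, -0.04 in shWDR5 and -0.02 and -0.02 in shNS, although its fitted difference was positive, 0.04 ± 0.09. Srxn1 was higher in all 4, by 0.21 in shKAT2B, 0.04 in shWDR5 and 0.05 and 0.12 in shNS, and Prdx1 by 0.08 in shKAT2B, 0.05 in shWDR5 and 0.14 and 0.02 in shNS. None of these 4 was called. Of the other pathway genes Bach1 was called (0.66 ± 0.12, adjusted p 0.0363), and lost the call in 7 of 10 fits that left out a library, the largest adjusted p being 0.21 without shKAT2B PBS A. With the replicate letter as a block its adjusted p was 5.92e-05.

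Whether depletion changed the response to glucagon was tested as an interaction. No member was called in either arm, 0 had an unadjusted p below 0.05, and 0.0 percent of all 11480 genes were called, with the lone PBS library of each depleted arm assumed to vary like the other groups. For the KAT2B arm the members' interactions ran from -0.30 ± 0.43 for Slc7a11 to 0.27 ± 0.23 for Gclc. With the replicate letter as a block Keap1 (0.45 ± 0.12, adjusted p 0.0404) and Slc7a11 (-0.53 ± 0.14, adjusted p 0.0351) were called in the KAT2B arm, among 12.1 percent of all genes. With the library set as a term the same interactions were 0.08 ± 0.12 and -0.07 ± 0.14, neither called, against 0.0174 percent of all genes. The shKAT2B PBS library carries the letter A and lies in the second set with the B libraries.

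Across the 10 libraries the profile of Srxn1 was closer to those of the other targets than to that of Nfe2l2. As a description, over points that share arms and library sets, Pearson's r with Srxn1 was 0.922 for Nqo1, 0.912 for Gclc, 0.901 for Txnrd1, 0.885 for Slc7a11, 0.879 for Gclm, 0.783 for Hmox1 and 0.633 for Prdx1. It was -0.141 for Nfe2l2 and 0.003 for Keap1. Many tested genes were more like Srxn1 than these targets were. By r, Nqo1 ranked 171, Gclc 199, Hmox1 826 and Prdx1 1598. The tested genes most like Srxn1 were Adam12 (r = 0.988), Tpi1 (0.986), Samd8 (0.985), Blvrb (0.983) and Ddx21 (0.982). Those most like Nfe2l2 were Vamp1 (0.97), Cpt1a (0.966), Cdh6 (0.959), Trim23 (0.951) and Gprc5b (0.95).

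Several members also differed between the library sets. In the 4 groups with both sets the second set minus the first averaged 0.46 for Slc7a11, 0.37 for Nqo1, 0.21 for Hmox1, -0.36 for Keap1, -0.24 for Gclm, -0.21 for Gclc and -0.17 for Nfe2l2. Srxn1 differed by 0.03 and Prdx1 by 0.11. The shKAT2B minus shNS differences of the 7 called targets between libraries of 1 set ran from -1.14 to -0.53, so each was negative within either set.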

How the data were processed

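RNA of 10 libraries was measured on Affymetrix Mouse Gene arrays, as the probe annotation names them. The authors deposited intensity values of 26913 features, linear in scale, from 4.469 to 22693.6. Per the submitters' processing notes Affymetrix Expression Console 1.1.1 was used, and how it normalized the values is not given in these sources. Of the features 17873 carried 1 gene symbol, 1128 several and 7912 none, and 0 value columns were left unused. The deposited intensity was taken as log2(intensity + 1), the lowest 30 percent of genes by mean were left out, and limma 3.58.1 in R 4.3.3 (lmFit, eBayes with trend) was fitted to all 10 libraries. Arm and treatment entered additively for the main comparisons, and the interactions came from a model of the 6 groups. Tests were two-sided. Precision is limited by the number of arrays.

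Errors after ± are the model's standard errors. The script was tested on simulated data whose noise was independent between libraries, unlike the split into library sets seen here. That test therefore does not show how reliable the calls are in these data. Python 3.11.15 was used for tables and figures, with numpy 2.4.6, pandas 2.3.3 and matplotlib 3.10.9. The members and gene lists were chosen with earlier results of these data known. The genes named are the 10 members, Kat2b, Wdr5, up to 4 called members of each pathway list with the smallest p in each comparison, and the 5 genes most correlated with Nfe2l2 and with Srxn1. The differences between libraries A and B correlated at 0.721 to 0.844 across genes between the 4 groups that have both letters, so the letters pair these groups, while both lone A libraries lay with the B libraries. The library set was derived from these same values, and fits that hold it are not independent checks. Alternatives were other scalings, filters, pseudocounts, no trend, the mean of a gene's features, the replicate block, the library set, subsets of libraries and leaving out each library. The count of further NRF2 targets under these settings was added after seeing the data. Promoter windows came from RefSeq for GRCm38.p6.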

Additional observations from a re-analysis of the deposited data

How the results depend on the processing

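The 10 members in the 4 comparisons of the additive model gave 880 values over 23 other settings, of which 807 kept their direction and their side of the threshold, 17 lost a call, 12 gained one and 44 changed sign, and 0 of those 44 were called. With only the 6 glucagon libraries the members called numbered 1 for KAT2B depletion and 1 for KAT2B minus WDR5 depletion, against 7 and 7, with fewer libraries and 3 residual degrees of freedom. For WDR5 depletion they numbered 2 with the replicate block, 2 with the library set as a term and 1 (Hmox1) with the second set alone, against 0. For glucagon they numbered 1 with the replicate block and 1 with the library set, against 0, and for the KAT2B interaction 2 with the replicate block, against 0. The replicate block changed no other call of a member. The interactions had no fit on subsets of libraries that lack a group. Sign changes were near 0. For KAT2B depletion Nfe2l2 was -0.0023 with centred libraries and -0.0073 with the replicate block (-0.03 to 0.085 leaving out 1 library), and Keap1 was 0.0051 with the library set, 0.0249 with the second set and 0.0349 with the glucagon libraries (-0.1863 to 0.01). For WDR5 depletion Nfe2l2 was 0.0173 with the library set and 0.05 with the second set (-0.0533 to 0.02), and Prdx1 was 0.019 with the block (-0.0367 to 0.03). For KAT2B minus WDR5 depletion leaving out 1 library gave -0.0177 to 0.1061 for Nfe2l2 and -0.038 to 0.177 for Keap1. For glucagon, with the library set, the second set and the shNS libraries in this order, Keap1 was -0.0396, -0.0299 and -0.0549, Gclm -0.0253, -0.0333 and -0.02 (-0.0062 to 0.09 leaving out 1 library), Txnrd1 -0.0453, -0.0333 and -0.03 (-0.0249 with centred libraries, -0.0267 to 0.05 leaving out 1) and Slc7a11 0.038, 0.0533 and 0.06 (-0.1916 to 0.0008), and Nqo1 was 0.0599 with the second set. The cause of these changes was not tested. The shKAT2B and shWDR5 PBS groups hold 1 library each, so list counts lean on them.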
